A study of Mus musculus with 7 samples.

Results

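Bdnf, the neurotrophin gene Ntf3 and 3 neurotrophin receptor genes are described here by the Fos peaks called around them in mouse hippocampus. The genes are Bdnf (brain-derived neurotrophic factor), Ntf3 (neurotrophin-3), Ntrk2 (TrkB, the receptor tyrosine kinase for BDNF), Ntrk3 (TrkC, the receptor for neurotrophin-3) and Ngfr (p75NTR, a receptor that binds all neurotrophins and their precursors). Peaks were taken where they lay within 50 kb of the span of one of these 5 genes in the GRCm38 annotation, out of 21887 protein-coding genes. This gave 181 merged regions of 68873 in the whole series, with a region being a set of peaks from any library that overlap by at least 1 bp.

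Chromatin immunoprecipitation with an antibody to Fos was sequenced (ChIP-seq) from hippocampi of wild-type C57BL/6J mice aged 2 months. The control group received saline. The treated group received kainic acid, a glutamate receptor agonist that provokes seizures, in 2 intraperitoneal injections of 10 mg/kg given 30 min apart. Treated mice were taken 1 hour after the first injection if their seizures had reached level 4, so this group was also selected on the seizure. The time of killing of the saline mice and the number of mice per library are not stated in the labels. Each group has 3 libraries, each with its own peak list. An input library (no antibody, labelled saline) was not analysed here. Nothing in the labels says that libraries came from separate mice, so tests measure the spread between these libraries only. The tissue was whole hippocampus, and more bound cells cannot be told apart from more binding per cell.

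Neurotrophins are secreted as precursors, cut to mature dimers, and bind Trk receptors, which signal through adaptor proteins to the MAP kinase, PI3 kinase and phospholipase C pathways. In the hippocampus BDNF and TrkB are known for their part in synaptic plasticity and in the response to seizures. Bdnf is a classic activity-regulated gene: several alternative promoters, each with its own 5′ exon, feed transcripts into a common coding exon. Fos is a subunit of AP-1, which binds DNA as a dimer with Jun proteins at the motif TGACTCA, which reads TGAGTCA on the other strand.

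The start sites of Bdnf show where the peaks lie relative to its alternative promoters, and the sequences below are those that overlap a peak. RefSeq's table for GRCm38.p6 lists 7 starts for Bdnf on the plus strand of chromosome 2, and 4 of the 5 genes have an entry in it. The 250 bases before each start were compared with the peaks. Windows before 4 of the 7 Bdnf starts lay under a peak of at least 1 kainic acid list, and 2 of these lay under peaks of 2 lists. An overlap of 1 base was enough, so a peak need not cover the whole window. The summit of a peak may also lie outside the window, as several do below. The bases under such a summit are not shown or searched. Over all 32851 such windows, 10.0% lay under a peak of at least 1 kainic acid list and 3.05% under peaks of at least 2. The 7 windows belong to 1 gene and are not independent. The 4 sequences are given 5′ to 3′ in lower case, with capitals for a match to TGANTCA or to TGACGT (the first part of the cAMP response element), searched on both strands. TGANTCA takes in the AP-1 motif and forms with another middle base. The motifs cannot match from the same first base but may overlap.

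Bdnf start 109674700, chr2:109674450-109674699: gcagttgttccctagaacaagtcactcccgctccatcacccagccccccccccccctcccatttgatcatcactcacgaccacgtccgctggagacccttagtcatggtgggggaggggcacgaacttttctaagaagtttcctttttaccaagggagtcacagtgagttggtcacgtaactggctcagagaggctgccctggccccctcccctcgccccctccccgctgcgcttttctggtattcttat
Bdnf start 109677032, chr2:109676782-109677031: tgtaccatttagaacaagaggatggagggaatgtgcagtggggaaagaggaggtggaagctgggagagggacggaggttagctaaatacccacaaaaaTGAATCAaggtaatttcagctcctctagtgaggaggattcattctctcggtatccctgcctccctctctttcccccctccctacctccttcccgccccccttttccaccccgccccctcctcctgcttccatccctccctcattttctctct
Bdnf start 109692436, chr2:109692186-109692435: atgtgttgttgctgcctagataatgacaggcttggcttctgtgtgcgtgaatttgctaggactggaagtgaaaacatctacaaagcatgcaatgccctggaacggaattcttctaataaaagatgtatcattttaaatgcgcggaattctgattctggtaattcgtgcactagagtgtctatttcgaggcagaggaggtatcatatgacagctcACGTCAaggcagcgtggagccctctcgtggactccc
Bdnf start 109709383, chr2:109709133-109709382: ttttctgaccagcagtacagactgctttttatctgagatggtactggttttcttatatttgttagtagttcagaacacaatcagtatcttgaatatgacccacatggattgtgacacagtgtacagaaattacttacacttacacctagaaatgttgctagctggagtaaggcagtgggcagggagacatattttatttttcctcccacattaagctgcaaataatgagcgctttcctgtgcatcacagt

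The window at 109674700 is the most upstream and held neither motif. It lay under a peak of fold 9.09 in kainic acid replicate 2, with its summit at position -323 relative to the start, and under one of fold 3.65 in replicate 3, with its summit at -135. Fold is the authors' ratio of a peak's summit to its local background within that library. The window at 109692436, which lies 17.736 kb downstream of the first start, held ACGTCA, the other strand of TGACGT, beginning at -36. It lay under a peak of fold 9.00 in kainic acid replicate 2 and one of fold 5.23 in replicate 3, with summits at -353 and -333. Only the peak of replicate 2 covers ACGTCA. The peak of replicate 3 ended before it, at 109692352. The windows at 109677032 and 109709383 lay under peaks of kainic acid replicate 2 alone, with folds of 6.99 and 5.86 and summits at -244 and 213. The first of these held TGAATCA beginning at -152, a match to TGANTCA whose middle base is not that of the AP-1 motif. Across all 32851 windows, 6.75% held TGANTCA and 6.47% held TGACGT. Kainic acid replicate 1 had no peak over any of the 7 windows, and without kainic acid replicate 2 or without replicate 3 no window had peaks of 2 lists. Windows before the other starts of Bdnf (109693027, 109694409 and 109722921), before the 2 listed starts of Ntf3, and before those of Ntrk2 and Ngfr lay under no peak of any list. No window of these genes lay under a saline peak, and 4.21% of all windows did. Ntrk3 is named only, since the table has no entry for it.

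Peaks in these windows were called after kainic acid and all but absent after saline. The windows of the 5 genes held 39, 164 and 77 peaks in kainic acid replicates 1, 2 and 3. They held 0, 1 and 0 peaks in saline replicates 1, 2 and 3, so the groups did not overlap. On the scale log10(number of peaks + 1), kainic acid libraries averaged 1.90 ± 0.308 (SD, n = 3), saline libraries averaged 0.100 ± 0.174 (SD, n = 3), and the means differed by 1.80. An exact permutation test (two-sided, 20 assignments of the libraries) returned p = 0.1, which is as small as this design can reach. The whole lists differ in length too, with 15009, 63197 and 29650 peaks after kainic acid and 7, 3277 and 2 after saline. The windows took the same share of each kainic acid list, 0.260%, 0.260% and 0.260% for replicates 1, 2 and 3, and 0.0305% of the list of saline replicate 2. With 7 and 2 peaks, saline replicates 1 and 3 could have shown few sites anywhere. The lowest background of any peak in these 2 lists, solved as described below, was 0.705 and 0.723 reads. It was 2.25 in saline replicate 2 and 3.17, 2.71 and 4.03 in kainic acid replicates 1, 2 and 3. Read totals are unknown, and the part of sequencing depth in the group difference was not tested.

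**Figure D1:**
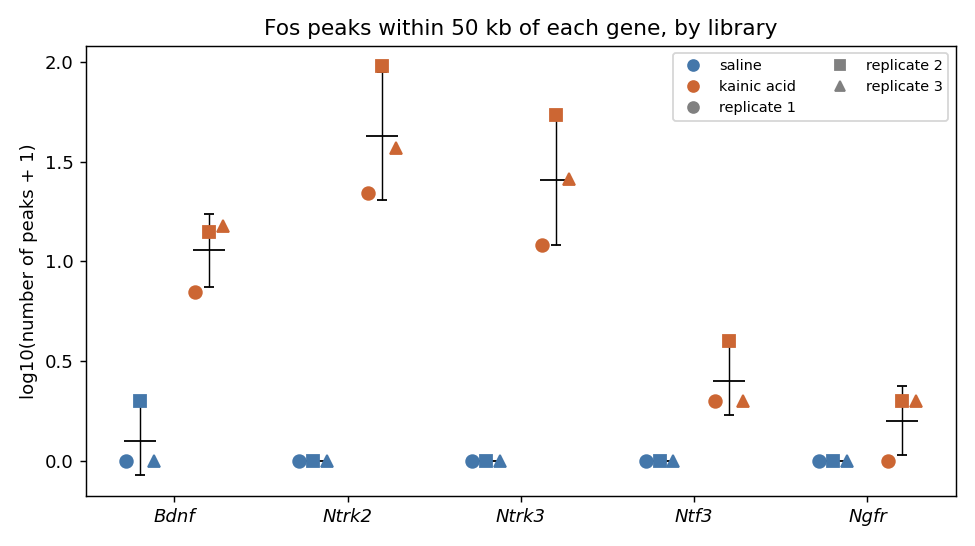
Number of peaks within 50 kb of each gene as log10(number + 1), 1 point per library, with horizontal marks for group means and bars for the SD (n = 3 libraries). All kainic acid points lie above the saline points except at Ngfr, where kainic acid replicate 1 is also at 0. How many of all genes show the same was not counted. The whole lists of saline replicates 1 and 3 hold only 7 and 2 peaks.

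The single saline peak lay inside Bdnf, at chr2:109693451-109693875. It was called in saline replicate 2 with a fold of 4.49, rank 1125 of 3277, from 16 reads over a background of 2.78. Its summit lay 691 bases after the start at 109693027, and no kainic acid list had a peak there. Reads at a summit (the pileup) and background were solved from the deposited fold and p-value. A saline peak within 50 kb is common among genes: 30.2% of protein-coding genes had one, and here it was 1 of 5.

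Replicate support was uneven. Of 180 regions with a kainic acid peak, 26 had a peak from every kainic acid library, 40 from exactly 2 and 114 from 1. The 66 in at least 2 lists are 36.7%, against 40.3% of all regions with a kainic acid peak in the series, and the 26 in all 3 lists are 14.4%, against 17.9%. Kainic acid replicate 2, the longest list, had a peak in all 66 of them, and 94 of the 114 regions in 1 list were its own. Without replicate 2 the 66 became 26, and without replicate 3 they became 33. None of the 66 had a saline peak, which allows a share of up to 4.55% (3 of 66). That limit covers counting error alone. The share without a saline peak was thus 100%, where 98.0% of all such regions in the series had none. The 66 regions were 268 to 2173 bp wide, with a median of 746.5 bp, and 57 lay inside or across a gene's span.

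All 5 genes had at least 1 region in 2 kainic acid lists, where 62.7% of protein-coding genes did. Bdnf, Ntrk2 and Ntrk3 also had regions in all 3 lists, where 42.5% of genes did, and Ntf3 and Ngfr had none. Bdnf, Ntrk2 and Ntrk3 had 8, 35 and 21 regions in at least 2 lists, and 4.40% of protein-coding genes had 8 or more. Long genes hold more regions, so the counts were also set against the length of the window. Regions in at least 2 lists numbered 8.19 per 100 kb of window for Ntrk2, 5.25 for Bdnf, 4.19 for Ntrk3, 0.841 for Ngfr and 0.605 for Ntf3. The median over protein-coding genes was 0.872 and the upper quartile was 1.93. By this measure 0.407% of genes were at or above Ntrk2, 3.03% at or above Bdnf, 5.98% at or above Ntrk3, 51.8% at or above Ngfr and 59.4% at or above Ntf3. Ntrk2, Bdnf and Ntrk3 thus lay above the 90th percentile (3.52), while Ntf3 and Ngfr lay below the median. The density of Ntrk2 was 6.06 times that over the union of all gene windows (1.35 per 100 kb). This ratio was 6.11, 5.85 and 5.96 without kainic acid replicates 1, 2 and 3. For Bdnf it was 3.89, and 3.64, 4.38 and 4.92 without them. For Ntrk3 it was 3.10, and 2.84, 2.33 and 2.99 without them. The ratio of Ntrk3 was 1.84 once each kainic acid list was cut to 15009 peaks and 0.993 with −log10 q of at least 10, so its excess over all gene windows was gone in the latter setting.

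**Figure D2:**
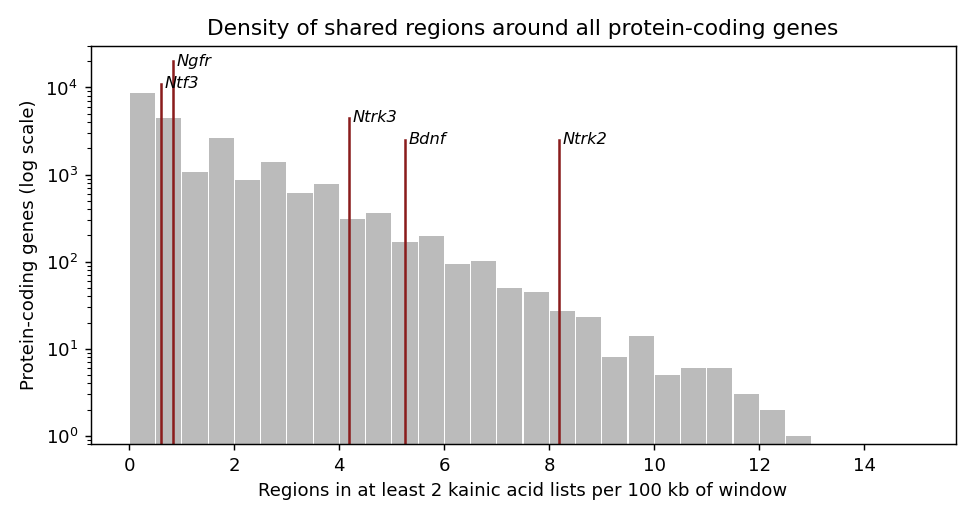
Histogram of regions shared by 2 or 3 kainic acid lists per 100 kb of window over 21887 protein-coding genes (y axis on a log scale), with a red line at each of the 5 genes. Ntrk3, Bdnf and Ntrk2 lie in the right tail at 4.19, 5.25 and 8.19, and Ntf3 and Ngfr lie among the bulk of genes.

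Bdnf, the ligand of TrkB, spans chr2:109674700-109727043. It had 6 peaks in kainic acid replicate 1, 13 in replicate 2 and 14 in replicate 3. Of the 20 regions these formed, 4 were in all 3 lists and 4 in exactly 2. The 8 became 4 without replicate 2 and 5 without replicate 3. RefSeq's table gives spans without exons, so exon and intron cannot be told apart for a region inside the gene.

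The region of Bdnf with the best mean rank lay inside the gene at chr2:109710706-109712321, with its median summit 1867 bases after the start at 109709383. Its folds were 7.26, 7.77 and 7.02 in kainic acid replicates 1, 2 and 3, from 38, 39 and 46 reads over backgrounds of 4.37, 4.15 and 5.70. These were ranks 1114 of 15009, 7466 of 63197 and 2316 of 29650, so the site stood at 7.42%, 11.8% and 7.81% of its lists, where 0 is the highest fold. All 3 ranks were near the top, with a mean of 9.02% ± 2.43 (SD, n = 3 lists).

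A neighbouring merged region at chr2:109708546-109709877 spans the start at 109709383 and was also in all 3 lists. Only the peak of replicate 2 covers that start. The peak of replicate 1 ended before it, at 109708878, and replicate 3 had 2 peaks, 1 on each side of it. The folds of this region, from the highest peak of each list, were lower, 4.22, 5.86 and 3.92. It ranked at 55.8%, 24.8% and 53.6%. The other 2 regions in all 3 lists flank the gene. The one at chr2:109638522-109639302 lies 35.398 kb before the span and had folds of 6.96, 7.56 and 3.83, at 8.79%, 12.6% and 55.6% of the lists. The one at chr2:109770866-109771295 lies 43.823 kb after the span and had folds of 5.04, 6.48 and 4.97, at 30.1%, 18.9% and 26.0%.

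The regions of Bdnf by the starts at 109674700 and 109692436 were missing from the list of kainic acid replicate 1. The region across the first start, chr2:109673638-109675138, ranked at 7.30% in replicate 2 and 64.2% in replicate 3. It was called from 37 and 21 reads. The region at chr2:109691305-109692481, across the start at 109692436, ranked at 7.53% and 22.1% in replicates 2 and 3, from 36 and 34 reads. There only the peak of replicate 2 covers the start. The remaining regions in 2 lists were weaker: chr2:109702016-109702375 had folds of 3.57 and 5.40 in replicates 1 and 2, and chr2:109705944-109706281 had folds of 4.86 and 3.38 in replicates 2 and 3. The regions by the starts at 109674700 and 109692436 thus ranked nearer the top than the downstream site in replicate 2 (11.8%), and further from it in replicate 3 (7.81%).

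**Figure D3:**
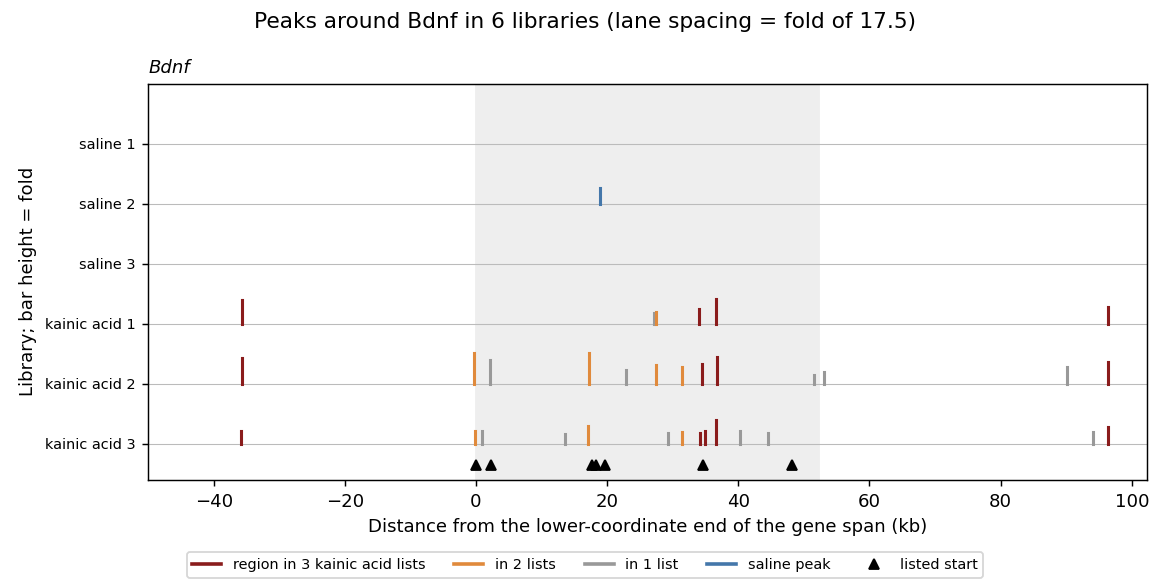
Peaks within 50 kb of Bdnf in each of the 6 libraries, by distance from the start of the gene span (kb), with bar height for the fold, shading for the span and triangles for the 7 listed starts. Of the 4 regions in all 3 kainic acid lists, 1 lies before the span, 2 in its later part and 1 beyond it, and 1 saline bar stands inside the span.

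Ntrk2, which encodes full-length and truncated forms of TrkB, spans chr13:58806472-59133970. It had 21, 94 and 36 peaks in kainic acid replicates 1, 2 and 3 and none in saline. Its 96 regions included 15 in all 3 lists and 20 in exactly 2. The 35 together became 15 without replicate 2 and 17 without replicate 3. They were gathered toward the start of the gene, which lies on the plus strand. The first 40% of the span, a limit chosen after the positions were seen, held 27 of them, or 20.6 per 100 kb, between 8.448 and 117.27 kb from the lower end. The other 60% held 5, or 2.54 per 100 kb. Regions in all 3 lists numbered 14 and 0 in these stretches. Without replicate 1 the regions in at least 2 lists numbered 25 and 5, and without replicate 3 they numbered 16 and 0. Without replicate 2 they numbered 14 and 0, the same regions as those in all 3 lists.

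The strongest region of Ntrk2 by mean rank was chr13:58876812-58878984, the widest of the 66. Its folds were 5.61, 9.78 and 8.15 in kainic acid replicates 1, 2 and 3, at 20.6%, 5.71% and 4.34% of the lists, from 23, 36 and 41 reads. The highest fold of any of the 5 genes was at chr13:58886072-58887036, with 13.2 in replicate 2 (rank 1269). That site had 4.56 in replicate 1 and 7.55 in replicate 3, so it stood at 43.1%, 2.01% and 5.86%. Of the regions in all 3 lists, the next by mean rank was chr13:58864058-58864792, with folds of 7.20, 8.10 and 4.57. The region at chr13:58875300-58876726, next to the strongest one, had 5.11, 5.79 and 8.07. The region at chr13:58854167-58854959 had 5.14, 6.19 and 6.44. All 5 of these lie between 47.89 and 79.84 kb into the gene. Some regions in 2 lists ranked among them, with means taken over those 2 lists alone. One was chr13:59145106-59145865, beyond the gene, with folds of 7.66 and 6.09 in replicates 2 and 3. Its mean rank of 12.8% leaves out replicate 1, where it was not called, and so is not on the same basis as means over 3 lists.

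Beyond this cluster, the listed starts of 2 noncoding genes were looked up, and each lay under a region of the Ntrk2 window. Starts of other noncoding genes there, such as Gm34354, were not looked up. Gm53063, a long noncoding RNA inside the Ntrk2 span, has its start under the region chr13:59073415-59073975, which had folds of 9.81 and 4.04 in kainic acid replicates 2 and 3 and was not called in replicate 1. The start of Gm34307 lies under the region chr13:59145106-59145865 given above, but there only the peak of replicate 2 covers it. For Gm53063, the 250 bases before its start, on the minus strand, are shown because both peaks overlap them, and they hold neither motif.

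Gm53063 start 59073714, chr13:59073715-59073964: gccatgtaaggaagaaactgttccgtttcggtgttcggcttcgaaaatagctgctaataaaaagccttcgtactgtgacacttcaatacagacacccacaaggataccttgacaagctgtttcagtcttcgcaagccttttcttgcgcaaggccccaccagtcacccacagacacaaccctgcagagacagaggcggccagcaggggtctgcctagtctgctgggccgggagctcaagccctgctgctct

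Ntrk3 spans chr7:78179986-78581034 and had 11, 53 and 25 peaks in kainic acid replicates 1, 2 and 3 and none in saline. Of its 59 regions, 7 were in all 3 lists and 14 in exactly 2, and the 21 became 7 without replicate 2 and 10 without replicate 3. Here the regions lay toward the higher coordinates: the upper 50% of the span, again a limit chosen after the positions were seen, held 17 of them and the lower 50% held 1. Without replicate 1 these counts were 15 and 0, without replicate 2 they were 6 and 0, and without replicate 3 they were 8 and 1.

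The region of Ntrk3 with the best mean rank, chr7:78569502-78570283, lies in the span of Ntrk3 and of the noncoding gene Gm39038. Its folds were 5.45, 7.56 and 6.16 in kainic acid replicates 1, 2 and 3, at 23.3%, 12.6% and 12.6% of the lists. It stood above the other 6 Ntrk3 regions in all 3 lists by mean rank, which ran from 38.4% to 72.4%. The region at chr7:78436834-78437635 had folds of 5.28, 3.78 and 5.36, the one at chr7:78399109-78399994 had 4.27, 5.29 and 4.68, and the one at chr7:78390138-78390807 had 3.91, 6.56 and 4.06. Weaker still by mean rank was chr7:78544337-78545072, with folds of 3.84, 5.94 and 3.77. The region at chr7:78474257-78474801 had 3.11, 4.27 and 4.90. The lowest was chr7:78607810-78608583, 26.776 kb beyond the span and inside the noncoding gene E430016F16Rik, with 3.56, 4.40 and 3.13. In replicates 1, 2 and 3, 0 of 11, 0 of 53 and 0 of 25 Ntrk3 peaks were in the top 10% of their list. For Ntrk2 these were 1 of 21, 5 of 94 and 4 of 36, and for Bdnf 2 of 6, 2 of 13 and 1 of 14. By construction 10% of all peaks of a list are there, and the differences between genes were not tested.

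**Figure D4:**
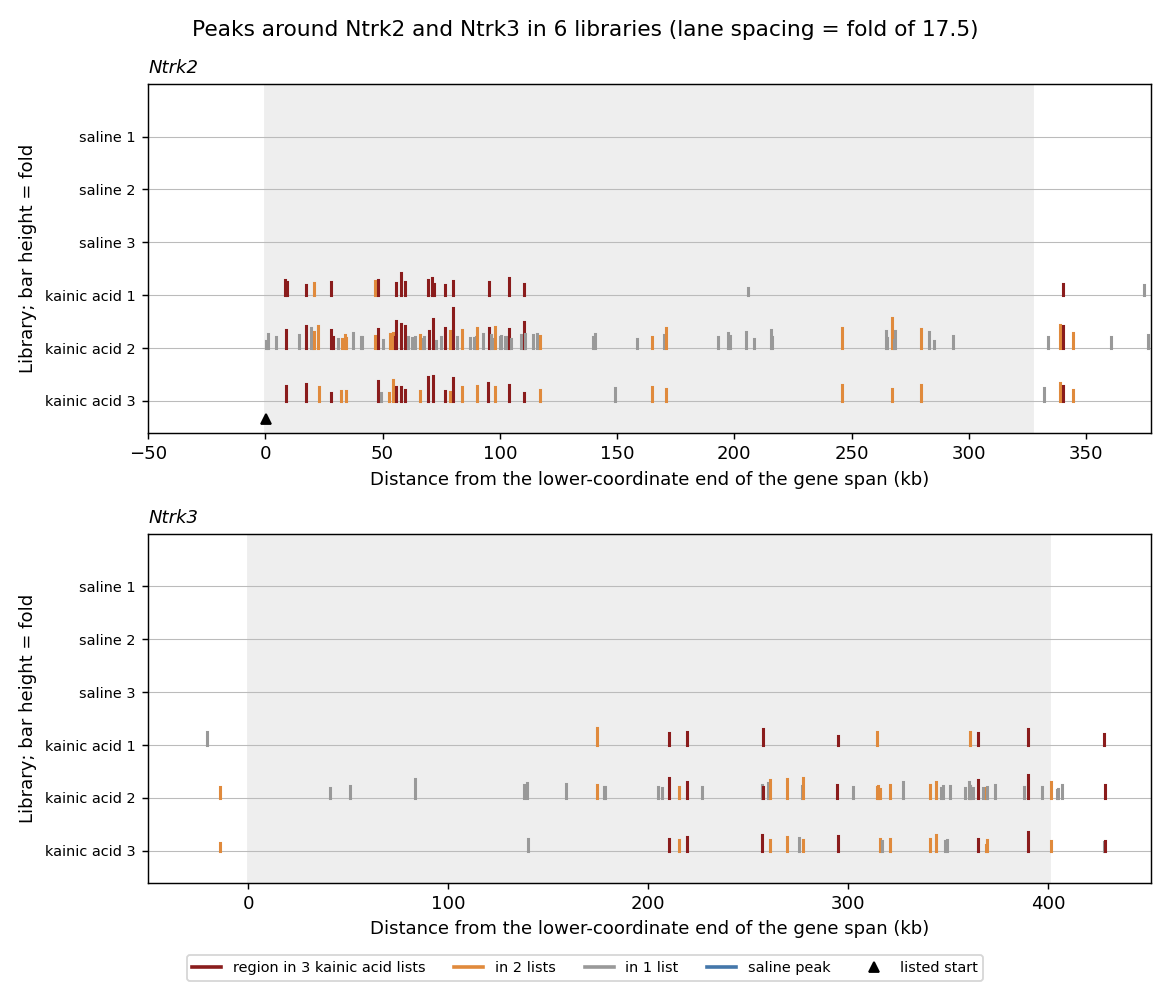
Peaks within 50 kb of Ntrk2 (top) and Ntrk3 (bottom) in each of the 6 libraries, by distance from the lower-coordinate end of the gene span (kb), with bar height for the fold and shading for the span. For Ntrk2, 14 of the 15 regions in all 3 kainic acid lists lie in the first 40% of the span, for Ntrk3 all 7 lie above its middle, and the saline lanes are empty.

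Ntf3, the ligand of TrkC, had 1, 3 and 1 peaks in kainic acid replicates 1, 2 and 3 across a span of 65.361 kb (chr6:126101412-126166772) and its flanks. A single region, chr6:126110786-126111247, was in 2 lists, with folds of 5.04 in replicate 1 and 5.67 in replicate 2, both from 20 reads. It lies inside the gene, 53946 bases after the nearest listed start, and was not counted without replicate 1 or without replicate 2. Ngfr (chr11:95568818-95587698) had 0, 1 and 1 peaks. Its region chr11:95520933-95521313 lies 47.505 kb from the gene, close to the limit of 50 kb, and had folds of 4.99 and 3.18 in replicates 2 and 3, at 37.0% and 83.0% of the lists. It was not counted without either of those replicates. By density Ntrk2 stood first at a reach of 50 kb and under every alternative run. Bdnf stood above Ntrk3 except at a reach of 100 kb, where they had 3.57 and 3.66 regions per 100 kb. Ngfr and Ntf3 each rest on 1 region, and their order turned with −log10 q of at least 5, at a reach of 10 kb and without kainic acid replicate 3, where Ngfr had none.

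The limit of 50 kb left further sites outside. The nearest region in at least 2 lists beyond it lay 54.85 kb from Bdnf, with folds of 4.56, 7.56 and 4.37 in kainic acid replicates 1, 2 and 3. For Ntrk2 it lay at 59.244 kb (4.65, 4.32 and 3.48), for Ntf3 at 67.184 kb (6.24, 6.48 and 4.57), for Ngfr at 73.948 kb (5.79 and 4.32 in replicates 2 and 3) and for Ntrk3 at 88.037 kb (4.56, 4.86 and 4.57). The outermost regions inside the limit were those given above for Bdnf, Ntrk3, Ntf3 and Ngfr, and for Ntrk2 one at 16.675 kb with folds of 5.10 and 3.55 in replicates 2 and 3.

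The same site often ranked differently between libraries. Among the 26 regions in all 3 lists, the gap between a region's highest and lowest rank ran from 2.46 to 89.1 percentage points, with a median of 39.1. Kainic acid replicate 2 ranked 15 of them highest, replicate 3 ranked 8 and replicate 1 ranked 3, and replicate 1 ranked 17 of them lowest. These ranks are percentages of lists of 15009, 63197 and 29650 peaks for replicates 1, 2 and 3. The part of list length in this order was not tested. Only 11 of the 26 stood above the middle of all 3 lists. Spearman's rho of the folds across regions came to 0.174 for replicates 1 and 2, over 33 regions. It came to 0.487 for replicates 1 and 3, over 26, and to 0.418 for replicates 2 and 3, over 59. These describe neighbouring sites of a few genes, which share libraries and are not independent.

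**Figure D5:**
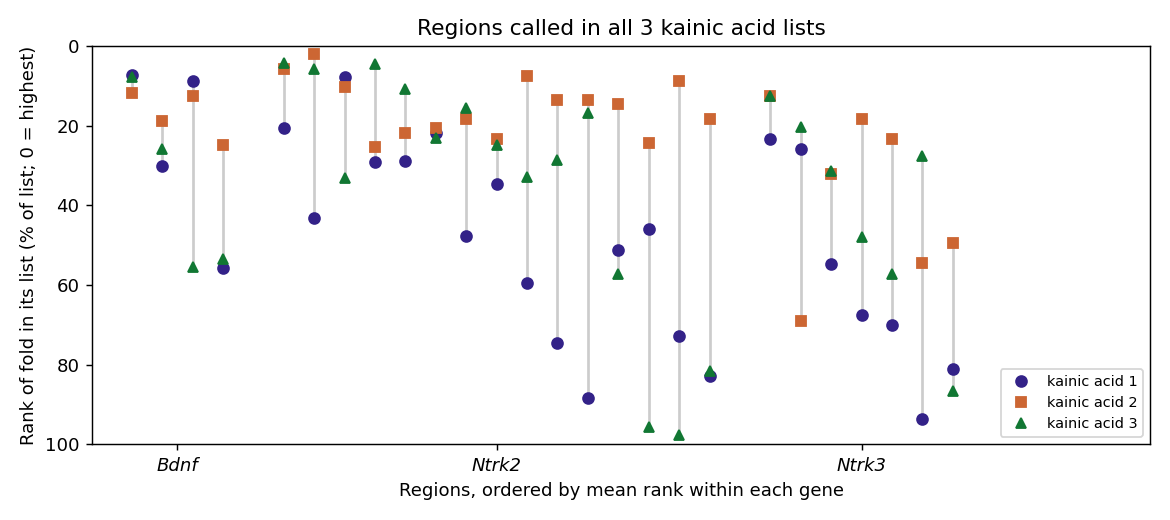
Rank of the fold within each kainic acid list (% of the list, 0 at the top is the highest fold) for the 26 regions in all 3 lists, with a grey line joining the 3 values of a region. The leftmost Bdnf region keeps all 3 ranks within 12% of the top, while the gap within a region reaches 89.1 points at Ntrk2.

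Genes with peak counts most like those of Bdnf were found over the 6 libraries by Euclidean distance in log2(number of peaks within 50 kb + 1). The nearest was Dhx40 (distance 0.288), with 7, 15 and 15 peaks in kainic acid replicates 1, 2 and 3 and 1 in saline replicate 2. Next came Kdm7a (0.391), with 5, 13 and 11, and Zfr (0.413), with 5, 16 and 12, each also with 1 peak in saline replicate 2. The distance reads only counts, so it says nothing of where the peaks lie.

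Other genes of neurotrophin signalling were taken from a list of 29. Of these, 22 (75.9%, 95% Clopper-Pearson interval 56.5 to 89.7) had a region in at least 2 kainic acid lists, against 62.7% of protein-coding genes. A region in all 3 lists was near 19 of them, against 42.5% of genes. A saline peak, always from saline replicate 2, was near 15 of them, against 30.2%. The median density of the 29 was 1.12 regions per 100 kb, against 0.872 over all genes. By role, with the ligands not tallied here, regions in at least 2 lists were near 8 of 8 receptors and coreceptors, 4 of 4 genes of precursor processing, 8 of 10 Trk adaptors and effectors and 2 of 5 p75NTR adaptors. Genes without one included the ligand Ntf5, the adaptors Frs3 and Sh2b1, and Traf6, Ripk2 and Arhgdia of the p75NTR pathway. Frs3 had no peak in any list.

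The best-ranked region in this list belonged to Furin, a protease that cuts neurotrophin precursors. It lies inside the gene at chr7:80400767-80401663 and had folds of 8.53, 16.6 and 12.2 in kainic acid replicates 1, 2 and 3 (ranks 558, 535 and 204). Next came a region 35.483 kb from Frs2, which encodes an adaptor of Trk receptors, at chr10:117033514-117034644 with folds of 8.06, 10.5 and 9.92. The region inside Sort1, which encodes sortilin, a coreceptor of p75NTR for precursors, had folds of 7.35, 11.1 and 8.94 at chr3:108358382-108359390. All 3 had a mean rank nearer the top than any of the 66 regions of Bdnf, Ntrk2, Ntrk3, Ntf3 and Ngfr. The windows of short genes hold neighbouring genes too, so a region near a gene is not thereby assigned to it.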

How the data were processed

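Fos ChIP-seq peak lists were used for 3 saline and 3 kainic acid libraries, 1 list per library and none pooled. Per the submitters' processing notes, Trim Galore 0.6.4, Bowtie2 2.3.4.3, MACS2, deepTools 3.5.0 and the build mm10 were used. Peak names in the deposited files also record alignments with a mapping quality of 30 that were sorted and merged. The cutoff and the control are not given in the sources used here. The authors' fold, as deposited, is a linear ratio of summit to local background. Fold, −log10 p and −log10 q in a deposited list refer to that library alone. The deposited score equals 10 times −log10 q, rounded down, in all 111142 peaks. None of these is scaled between libraries, so ranks were taken within a list, and a site missing from a list is one not called there.

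Read totals are unknown. Pileup (k) and background (λ) followed from the fold, taken as (k + 1)/(λ + 1), together with the Poisson p, and this held within 0.001 for 111133 peaks and was tested on simulated data, as was the merging. Peaks were called from as few as 12, 9 and 13 reads in kainic acid replicates 1 to 3, and from 12, 11 and 17 in saline replicates 1 to 3.

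Peaks overlapping by 1 bp were merged. Gene spans and promoter sequences came from RefSeq tables of GRCm38.p6, the same assembly as mm10. The peak numbers were compared by a two-sided exact permutation test (SciPy 1.17.1, Python 3.11.15), and shares have 95% Clopper-Pearson intervals. Genes named are the 5 members, with the best-ranked region of each, every region in all 3 kainic acid lists (the 5 best for Ntrk2), every region with a saline peak and, for Bdnf, the region nearest each end. Other regions of Bdnf in 2 lists, those of Ntrk2 at Gm53063 and beyond the gene, the counts in the top 10% of lists and the motifs were chosen after values were seen. From the pathway list, the 3 genes with the best-ranked region and the genes without a region were named, except for an item that is not reported here. The members and lists were chosen with earlier results of these data known. Alternatives were a −log10 q of at least 5 or 10, reaches of 10 and 100 kb, all 3 lists, merging by summits within 200 bp, equal list lengths, ranks by −log10 q and leaving out each library.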

Additional observations from a re-analysis of the deposited data

How the results depend on the processing

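In 12 alternatives log10(number of peaks + 1) was higher after kainic acid, and the length covered, as log10(bp + 1), was higher by 3.69. With each library left out in turn the gap ran from 1.65 to 1.95, and the smallest p such a design allows is 0.2. The labels do not tie same-numbered libraries together. Under the replicate block the gap was 1.80, and an exact permutation test that flips the sign of each pair returned p = 0.25, its smallest value for 3 pairs. Deviations of peak counts correlated at 0.354, 0.347 and 0.0138 for pairs 1, 2 and 3. Saline replicate 3 with kainic acid replicate 1, which differ in number, also gave 0.354. With 7 and 2 peaks in saline replicates 1 and 3, these correlations cannot tell whether libraries were paired. The numbers were not taken as pairs because the labels do not tie them.

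The 66 regions in at least 2 lists (4.83 per 100 kb) became 40 (2.93 per 100 kb) at a −log10 q minimum of 5, 18 (1.32) at a minimum of 10, 26 (1.90) in all 3 lists and 33 (2.42) once each kainic acid list was cut to 15009 peaks. Without one or another kainic acid library there were 26 to 59 regions (1.90 to 4.32 per 100 kb). By construction fewer peaks enter these settings, except that of all 3 lists, which asks more of the same peaks. The share with no saline peak says nothing of stability, since saline lists of 7, 3277 and 2 peaks could hardly move it. With −log10 q of at least 10, Bdnf had 4.90 and Ntrk2 7.56 times the density of all gene windows. The share of pathway genes with a region was 48.3% with −log10 q of at least 10 and 93.1% at a reach of 100 kb. Of 50 counts of regions near single genes, 32 moved by over 1.5 times, 30 to fewer and 2 to more, and 13 of these, all for Ntf3 or Ngfr, became 0. Where a region was left to rank, 2 of 42 mean ranks of a gene's strongest region moved by more than the spread between lists. That spread is the SD of the region itself, 8.99 points for Ntrk2 and 32.6 for Ngfr. The Ngfr rank thus went from 60.0% to 32.9% at a reach of 100 kb without being counted as moved. The region that ranked strongest could also change between settings, so the count does not measure stability.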

Other observations

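Folds near these genes took repeated values. In kainic acid replicates 1, 2 and 3, 10 of 39, 43 of 164 and 21 of 77 peaks near the 5 genes stood within 0.001 reads of the lowest background of their list (3.17, 2.71 and 4.03 reads). On that background the fold is fixed by the whole number of reads. The Ntf3 region and the Bdnf region 43.823 kb beyond the gene both had 20 reads in kainic acid replicate 1, and so the same fold of 5.04 and the same rank of 4515. The Bdnf region 35.398 kb before the gene and the best Ntrk3 region both had 27 reads in replicate 2, a fold of 7.56 and rank 7977.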
